A study of Mus musculus with 6 samples.

Results

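The proteasome subunit genes of mouse embryonic stem cells were examined in a measurement of newly made RNA, with and without 2 h of ERK pathway activation. Members were taken by gene symbol alone, as every row of the deposited table whose symbol is Psma, Psmb, Psmc or Psmd followed by a number. There were 39 such genes among 25899 symbols: 8 Psma, 11 Psmb, 6 Psmc and 14 Psmd. Because this family was singled out with earlier results of the same comparison in view, its values are given as a description. No p-value is given for the family as a whole, and the difference between its classes was not tested.

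The proteasome is the cell's main machine for degrading ubiquitin-tagged proteins. Its 20S core is a barrel of stacked rings: outer alpha rings encoded by Psma genes, which gate entry, and inner beta rings encoded by Psmb genes, which hold the cutting sites. The 19S cap sits on the barrel's ends, where a ring of ATPases encoded by Psmc genes unfolds substrates, and most Psmd genes encode non-ATPase proteins that bind ubiquitin chains, remove them or hold the cap together. Cells can raise these genes together, and the transcription factor Nfe2l1 is the best known driver of that response when proteasomes are inhibited. Immune, thymus and testis forms exist in which single core subunits are replaced by close relatives.

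All 6 libraries came from E14tg2a embryonic stem cells of the 129SV background carrying a stable cRAF-ErT2 cassette, a RAF kinase fused to an oestrogen receptor domain that 4-hydroxytamoxifen (4OHT) switches on. Cells of 3 clones, named a, b and c, were grown in serum with LIF and 2 µM CHIR99021, a GSK3 inhibitor. For the last 24 h the medium was serum with LIF and the FGF receptor inhibitor PD173074 at 250 nM. Each clone then gave an untreated sample and one exposed for 2 h to 250 nM 4OHT, and 5 mM ethynyl uridine (EU) was added for the final 15 minutes so that RNA made in that window could be captured. The labels name neither a solvent control nor 4OHT-treated cells without the cassette, so an action of 4OHT itself cannot be told apart from that of the RAF fusion.

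Library totals ran from 9745747 to 12168380 counts untreated and from 7295334 to 9431819 after 4OHT. All 10 embryonic stem cell markers had counts in every library, and they summed to 2881 to 2989 CPM (counts scaled to a common library total) untreated and 2177 to 2561 CPM after 4OHT. This sum joins genes that moved in opposite directions. Their log2 fold changes ran from -1.66 for Nanog to 0.86 for Dppa4, with 3 of the 10 above 0. Fibroblast markers summed to at most 5.41 CPM, with Postn and Lum at 0 everywhere, and blood markers to at most 12.1 CPM, with Hba-a1 and Hbb-bs at 0. Fibroblast sums were 2.73 to 3.05 CPM untreated and 3.59 to 5.41 CPM after 4OHT, while blood sums overlapped between groups. Single markers went both ways: Col1a1 rose from at most 0.392 CPM to at least 1.98 CPM and Ptprc from at most 0.098 to at least 1.14 CPM, while Pdgfrb fell by 0.91 on the log2 scale and Dcn and Col3a1 had no count after 4OHT. Their part in the results was not tested.

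After 4OHT, newly made RNA was higher for most proteasome genes, among them 17 of the 20 cap genes. Of the 37 members with enough counts to test, 26 rose and 2 fell at an adjusted p below 0.05, and 9 were not called. Over all 13869 genes tested, 28.5% rose and 28.6% fell, 57.1% in all. The median log2 fold change was 0.34 over the members and -0.00054 over all genes. The 3 treated libraries lay wholly above the 3 untreated ones for 27 members and wholly below for 3, against 31.4% and 31.9% of all genes. Since this is bulk RNA, a change in the number of cells making a transcript and a change in RNA made per cell cannot be told apart.

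The summed level of all 39 genes was 2829, 2804 and 2850 CPM in the untreated libraries of the 3 clones. After 4OHT it was 3604, 3563 and 3576 CPM. As an unscaled share of all counts the rise was smaller. The genes held 0.3056%, 0.3036% and 0.2984% untreated and 0.3346%, 0.3315% and 0.3355% after 4OHT. Within each clone the median log2 ratio over the members was 0.32, 0.33 and 0.34, while over all genes it was 0.012, 0.0041 and -0.019. Treated levels exceeded untreated levels in 3 of 3 clones for 28 members, were below in 3 of 3 for 4, and were mixed for 5. The same count was not made over all genes, so it cannot be read as particular to these members. The median change of the family was thus nearly the same in the 3 clones. Within classes, the clone medians were 0.39, 0.39 and 0.42 for the ATPases and 0.11, 0.12 and -0.02 for the alpha ring. Single genes could differ more, as Psma8 did at -0.60, -0.24 and -0.53.

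How the libraries are scaled decides many of the single calls. The main scaling, TMM, sets the bulk of genes to no change, and scaling by library size alone lowers every log2 fold change by about 0.20. Under library size alone 14 members were called higher and 4 lower, beside 17.4% and 41.0% of all genes, and of all calls 29.7% instead of 49.9% were higher. The genes that lost their call were Psmb1, Psmb2, Psmb3, Psmb4, Psmb6, Psmb7, Psmc5, Psmd1, Psmd2, Psmd4, Psmd6 and Psmd13, and Psma4 and Psmd10 became called lower. Relative to the median of all genes, the members' median was 0.34 higher under either scaling, as it must be when every gene shifts alike. With clone as a block, 28 members were called higher and 3 lower, beside 34.1% and 33.3% of all genes. Neither scaling can show a change in the total RNA made per cell.

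**Figure D1:**
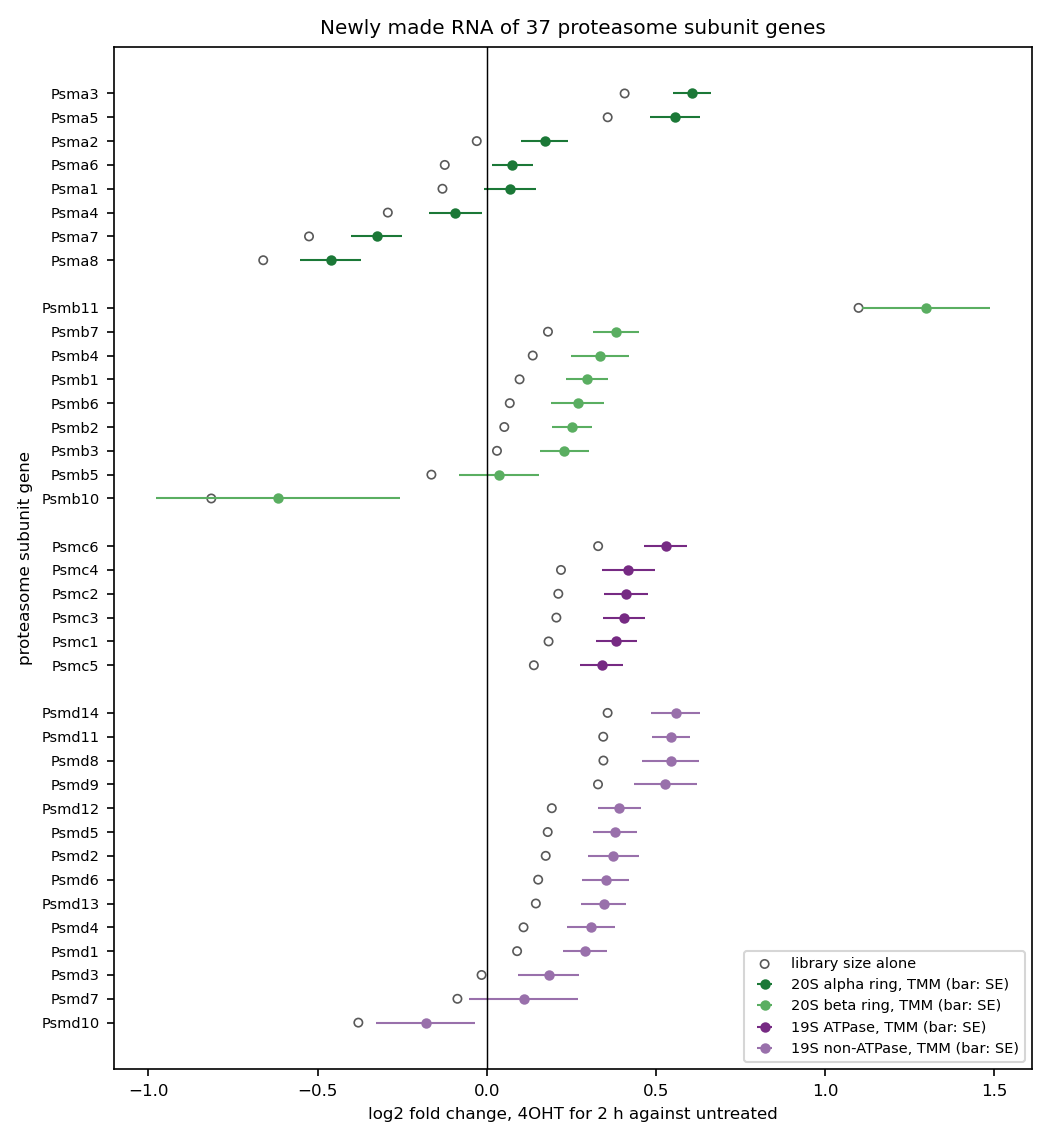
Log2 fold change (horizontal axis, 4OHT for 2 h against untreated, 3 libraries each) of the 37 tested proteasome subunit genes (vertical axis), grouped by class. Filled points with SE bars use TMM scaling and open circles library size alone. The 6 ATPase genes lie between 0.34 and 0.53 with TMM, while the alpha ring genes spread from -0.46 to 0.61.

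The alpha ring genes split in both directions. Psma3 and Psma5 rose, Psma7 and Psma8 fell, and the other 4 were not called, with a class median of 0.07 under TMM and -0.13 under library size alone. Psma3 encodes one of the standard alpha subunits and lies at chromosome 12, 70974621 to 70996347 (mm10, plus strand). It stood at 135, 140 and 138 CPM untreated and at 208, 212 and 209 CPM after 4OHT. All treated values lay far above all untreated ones, for a log2 fold change of 0.61 ± 0.06 (SE, n = 3 per group, adjusted p = 1.1e-05). Psma5, another standard subunit, went from 81.0, 74.5 and 83.8 CPM to 124, 110 and 118 CPM, a log2 fold change of 0.56 ± 0.07 (adjusted p = 1.1e-04).

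Psma7 and Psma8 encode alternative versions of one ring position, the second being the testis form found in spermatogenic cells. Psma7 stood at 61.1, 56.8 and 58.1 CPM untreated and 47.2, 43.7 and 49.7 CPM after 4OHT. The groups did not overlap, and the log2 fold change was -0.33 ± 0.07 (adjusted p = 0.0039). Psma8, on chromosome 18, stood at 45.3, 38.7 and 44.6 CPM untreated and 29.8, 32.7 and 30.8 CPM after 4OHT, again without overlap (log2 fold change -0.46 ± 0.09, adjusted p = 0.0015). Per kilobase of annotated exon the untreated levels of Psma8 and Psma7 were 17.2 ± 1.4 and 19.1 ± 0.72 CPM (SD, n = 3), and per kilobase of gene span 0.763 and 9.68 CPM. Which length applies is unknown, so the levels of the pair cannot be ordered. The treatment of reads shared by close relatives is not stated.

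The remaining alpha genes were not called. Psma2 and Psma4 encode subunits whose tails help to close the entry gate. Psma2 had a log2 fold change of 0.17 ± 0.07 with groups that did not overlap, and its adjusted p was 0.058, or 0.0044 with clone as a block. Psma6 and Psma1 were both at 0.07 and Psma4 at -0.09, each with overlapping groups. Psma1, Psma2 and Psma6 turned to -0.13, -0.03 and -0.12 under library size alone.

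In the beta ring, 7 of 9 tested genes rose and none was called lower, with a median of 0.27. Under library size alone only Psmb11 of these kept its call and the median was 0.07. Psmb1, Psmb2, Psmb3 and Psmb4, the beta subunits without a cutting site, had log2 fold changes of 0.30, 0.25, 0.23 and 0.34. The rise of Psmb3, with an adjusted p of 0.019, was lost without untreated clone a (0.058), untreated clone b (0.089) or treated clone a (0.054).

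Of the 3 genes of the standard cutting subunits, Psmb7 and Psmb6 rose and Psmb5 was not called. Psmb7, whose product cuts after basic residues, lies at chromosome 2, 38588036 to 38644087, where its span overlaps Nek6. It went from 163, 154 and 142 CPM to 204, 204 and 190 CPM, a log2 fold change of 0.38 ± 0.07 (adjusted p = 9.1e-04). Psmb6, whose product cuts after acidic residues, went from 48.8, 49.1 and 43.1 CPM to 54.6, 56.8 and 58.9 CPM (0.27 ± 0.08, adjusted p = 0.013, or 0.051 without untreated clone c). Both rose with no overlap between groups. Psmb5, whose product cuts after hydrophobic residues and binds the drug bortezomib, stood at 21.6, 22.3 and 24.4 CPM untreated and 25.5, 19.7 and 24.8 CPM after 4OHT. These groups overlapped, the log2 fold change was 0.04 ± 0.12 (adjusted p = 0.81), and the difference between Psmb5 and the other two was not tested.

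The immune counterparts of those subunits, which interferon normally induces, had low counts. Psmb8 had 1, 3 and 2 counts untreated and 1, 0 and 1 after 4OHT, below what can be compared. Psmb9 had 8, 7 and 7 counts untreated and 2, 3 and 2 after 4OHT, and the ratio of the scaled sums was 0.482 (95% counting interval 0.174 to 1.17). A floor of 3 counts equals 0.228 to 0.438 CPM in these libraries, and such intervals cover counting error only. Psmb10 stood at 3.05, 2.88 and 4.61 CPM untreated and 2.17, 1.11 and 3.65 CPM after 4OHT, with overlap, a log2 fold change of -0.62 ± 0.36 and an adjusted p of 0.17. With clone as a block that p was 0.037, but leaving out single libraries moved the log2 fold change between -1.05 and -0.28, with adjusted p between 0.032 and 0.51.

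Psmb11 encodes the beta subunit particular to the thymus cortex and lies beside Psmb5 on chromosome 14, at 54621433 to 54629556. It stood at 2.00, 2.13 and 2.25 CPM untreated and 5.37, 4.95 and 5.41 CPM after 4OHT. This was the highest fold change of the family at 1.30 ± 0.19 on the log2 scale (adjusted p = 2.3e-04), from one of its lowest levels, 0.444 CPM per kilobase of exon.

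**Figure D2:**
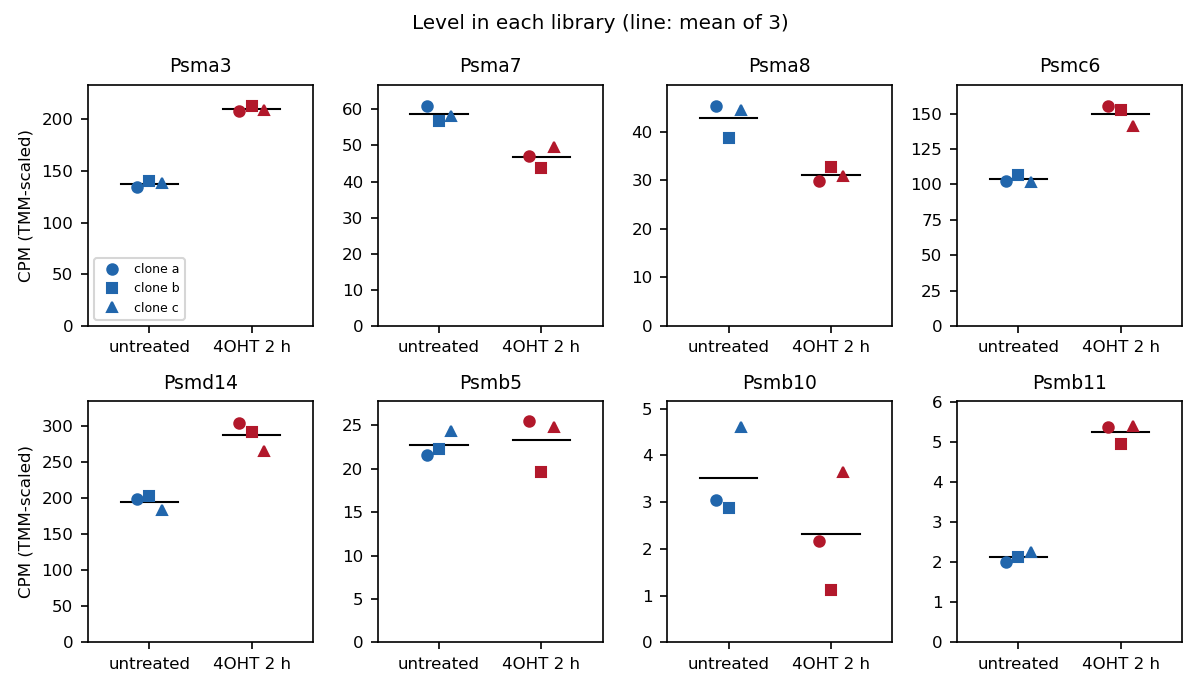
Level in CPM (vertical axes, TMM-scaled, from 0) of 8 members in each library, untreated and after 4OHT for 2 h (horizontal axes), with clones as symbols and the mean of 3 as a line. Treated libraries lie above untreated ones for Psma3, Psmc6, Psmd14 and Psmb11 and below for Psma7 and Psma8, while those of Psmb5 and Psmb10 overlap.

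All 6 ATPase genes of the cap rose, and none of their groups overlapped. Psmc6 rose the most, from 103, 107 and 102 CPM to 155, 153 and 141 CPM (log2 fold change 0.53 ± 0.06, adjusted p = 6.2e-05). Psmc4 went from 46.3, 48.4 and 51.5 CPM to 65.5, 60.4 and 69.6 CPM (0.42 ± 0.08). Psmc2 went from 82.5, 77.5 and 81.4 CPM to 108, 111 and 102 CPM (0.41 ± 0.07). The products of these genes join in a single ring, and all 6 log2 fold changes lay between 0.34 and 0.53.

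Psmc3, whose span overlaps Slc39a13, went from 67.7, 67.5 and 69.9 CPM to 88.6, 89.7 and 93.2 CPM (0.40 ± 0.06). Psmc1 went from 75.1, 75.3 and 75.2 CPM to 98.6, 94.7 and 101 CPM (0.38 ± 0.06). Psmc5 went from 67.7, 63.8 and 64.5 CPM to 83.4, 82.7 and 81.8 CPM (0.34 ± 0.06). The adjusted p of the ATPase genes was at most 0.0011. The class median was 0.41, and 0.39, 0.39 and 0.42 within clones a, b and c. Under library size alone 5 of 6 stayed called with a median of 0.21, and Psmc5 did not (0.14, adjusted p = 0.093).

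Among the 14 non-ATPase genes 11 rose and none was called lower, with a median of 0.36. Psmd14 encodes the enzyme that cuts ubiquitin chains off the substrate as it enters, and spans chromosome 2, 61711694 to 61800376. It went from 199, 203 and 184 CPM to 304, 292 and 266 CPM (0.56 ± 0.07, adjusted p = 9.6e-05). Psmd11, a lid subunit that clamps cap to core, went from 171, 173 and 168 CPM to 248, 252 and 246 CPM (0.54 ± 0.06, adjusted p = 2.2e-05). Both were without overlap and among the more abundant members before scaling for length.

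The other lid genes Psmd8, Psmd12, Psmd6 and Psmd13 rose by 0.54, 0.39, 0.35 and 0.34 on the log2 scale. Psmd1 and Psmd2, the large scaffold subunits of the base, rose by 0.29 and 0.37, and Psmd4, a receptor for ubiquitin chains, by 0.31. The spans of Psmd1 and Psmd13 overlap other genes. Psmd3, a lid subunit, had a log2 fold change of 0.18 ± 0.09 (adjusted p = 0.11), or an adjusted p of 0.0095 with clone as a block. Psmd7, the lid partner of Psmd14, was at 0.11 ± 0.16 (adjusted p = 0.59).

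Psmd5, Psmd9 and Psmd10 encode chaperones that help to assemble the ATPase ring and leave the finished cap. Psmd9 and Psmd5 rose, by 0.53 ± 0.09 and 0.38 ± 0.07, and each overlaps another gene, Hpd and Cutal. Psmd10, also known as gankyrin, stood at 7.69, 7.67 and 9.02 CPM untreated and 7.20, 6.80 and 7.45 CPM after 4OHT. Its groups did not overlap, but the log2 fold change of -0.18 ± 0.15 was not called (adjusted p = 0.31).

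Core and cap can be set side by side without any scaling between libraries. Cap genes held 57.8% (95% exact binomial interval 57.3 to 58.3), 58.2% (57.7 to 58.7) and 58.4% (57.8 to 58.9) of all proteasome counts in the untreated libraries of clones a, b and c. After 4OHT they held 60.8% (60.3 to 61.4), 60.3% (59.8 to 60.9) and 60.8% (60.1 to 61.4). These intervals cover counting error only and not the spread between libraries. Every treated library had a higher cap share than every untreated one. By gene, 17 of 20 cap genes rose and none fell, with a median of 0.38, while 9 of 17 tested core genes rose and 2 fell, with a median of 0.23. The 14 standard core genes, Psma1 to Psma7 and Psmb1 to Psmb7, had a median of 0.24, with 8 higher and 1 lower.

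**Figure D3:**
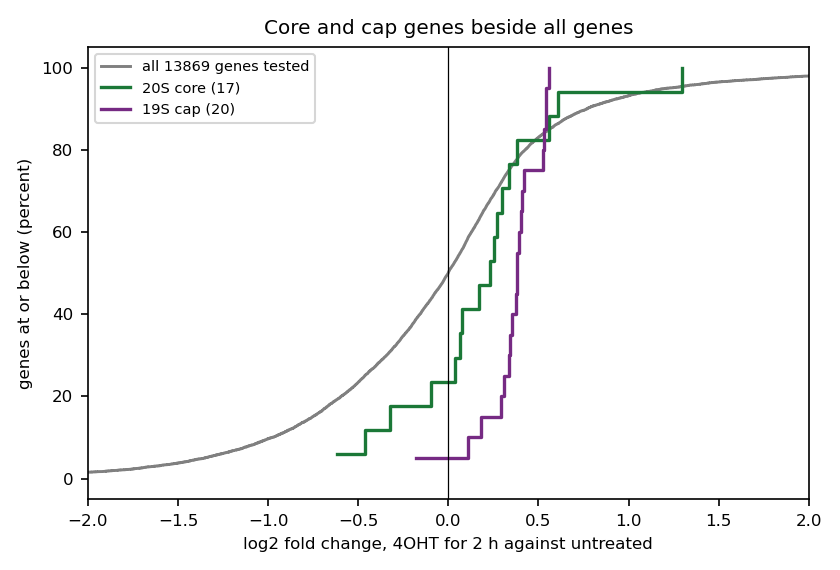
Share of genes in percent (vertical axis) at or below each log2 fold change (horizontal axis, TMM, shown from -2 to 2) for 17 core genes, 20 cap genes and all 13869 genes tested. The cap curve climbs steeply around its median of 0.38, the core curve is spread around 0.23, and the curve of all genes crosses its midpoint near 0.

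Before treatment, levels per kilobase of exon were highest for Psma6 (81.0 CPM), Psmb2 (77.9), Psmd14 (69.2) and Psma5 (60.4). They were lowest for Psmb11 (0.444), Psmb9 (0.169) and Psmb8 (0.0497). Psma6 at 81.0 ± 3.2 and Psmb2 at 77.9 ± 0.47 CPM per kilobase (SD, n = 3) differed by about their spread. Counting by exons or by whole gene bodies is not given in the sources used here, and per kilobase of gene span Psmb6 ranked first and Psma6 ranked 28. The order of levels therefore depends on which length applies.

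Across the 37 tested members, log2 fold change had a Spearman rank correlation of 0.30 with gene span, 0.38 with exon length and 0.38 with mean level. Over 13519 protein-coding genes the values were -0.04, 0.03 and 0.25. These are descriptions across genes of the same libraries. Members spanning under 10 kb had a median of 0.29 (14 genes, 8 higher) and longer ones 0.38 (23 genes, 18 higher).

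The members lay on 16 chromosomes, and RefSeq promoter windows (GRCm38.p6) matched by symbol for 32 of them. In the 250 bases before the start, 3 short motifs were searched on both strands: the antioxidant response element core TGANNNNGC, bound by Nfe2l1 and Nfe2l2, the CCAAT box, and CCGGAAG, the core bound by ETS factors, several of which ERK phosphorylates. The first was in 37.5% of member windows and 36.5% of the 10619 windows of tested genes, and CCAAT in 40.6% and 36.2%. CCGGAAG was in 25.0% of member windows, 13.3% of those of tested genes and 7.05% of all 27025. No CCGGAAG match overlaps the letters of the other motifs in the windows printed here. A match is a run of letters and no evidence of binding.

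The 8 windows with CCGGAAG all belonged to cap genes: Psmc1, Psmc2, Psmc6, Psmd2, Psmd4, Psmd6, Psmd11 and Psmd12, that is 8 of 17 cap windows and 0 of 15 core windows. All 8 genes rose, with log2 fold changes of 0.31 to 0.54, and so did 8 of the 9 cap genes whose windows lack it. Psmd3 and Psmd7, both uncalled, had no window, so Psmd10 was the only uncalled cap gene compared. These counts therefore cannot show whether the motif goes with the response of cap genes. Shown are 3 cap genes that hold it and rose, then Psma3, the standard core gene with the largest rise, and the short stretch in front of Psma7, which fell. Capitals mark motif matches, sequences run 5′ to 3′ on the gene's strand, and each stops short of any annotated exon.
Psmd11, chr11:80428365-80428614, plus strand: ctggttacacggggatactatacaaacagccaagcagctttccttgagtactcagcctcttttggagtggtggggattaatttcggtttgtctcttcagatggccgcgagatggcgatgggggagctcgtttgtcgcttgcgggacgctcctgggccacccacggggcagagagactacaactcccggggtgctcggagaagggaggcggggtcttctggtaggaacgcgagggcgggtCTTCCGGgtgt
Psmc6, chr14:45329574-45329787, plus strand: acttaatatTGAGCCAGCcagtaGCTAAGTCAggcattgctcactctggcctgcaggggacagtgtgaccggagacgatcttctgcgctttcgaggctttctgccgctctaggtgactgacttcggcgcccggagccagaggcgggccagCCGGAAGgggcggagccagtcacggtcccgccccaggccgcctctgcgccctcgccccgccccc
Psmd2, chr16:20651402-20651651, plus strand: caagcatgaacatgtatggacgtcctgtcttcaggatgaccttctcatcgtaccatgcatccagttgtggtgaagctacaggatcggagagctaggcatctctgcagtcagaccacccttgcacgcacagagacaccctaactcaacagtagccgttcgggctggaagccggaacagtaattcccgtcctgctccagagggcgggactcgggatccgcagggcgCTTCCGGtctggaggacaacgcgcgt
Psma3, chr12:70974373-70974620, plus strand: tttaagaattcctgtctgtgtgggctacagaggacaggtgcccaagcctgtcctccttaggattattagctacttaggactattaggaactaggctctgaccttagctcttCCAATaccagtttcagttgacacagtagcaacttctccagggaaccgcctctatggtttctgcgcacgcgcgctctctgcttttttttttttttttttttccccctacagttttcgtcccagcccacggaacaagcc
Psma7, chr2:180042465-180042508, minus strand: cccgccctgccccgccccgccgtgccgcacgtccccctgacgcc
In Psmd11 and Psmd2 the capitals are the reverse complement of the ETS core, 5 and 20 bases before the RefSeq start at their nearer end. Psmc6 holds 2 matches to the antioxidant core far upstream, the second in reverse, followed by the ETS core. Psma3 shows a single CCAAT box. The searched window of Psma7 also holds a CCAAT box, at -196 to -192 from the RefSeq start. It lies outside the printed Psma7 stretch, which shows no match.

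That stretch is short because Psma7 has a neighbour on the opposite strand, Ss18l1, whose start lies 76 bp away. Ss18l1, which encodes a chromatin remodelling subunit, went from 26.6, 23.3 and 21.3 CPM to 14.6, 11.8 and 12.9 CPM, a log2 fold change of -0.86 ± 0.13 (adjusted p = 2.7e-04). Both genes of this pair fell. In all, 10 members had a protein-coding neighbour starting within 1000 bp in the opposite direction. Psmc5 and Ftsj3, a ribosome biogenesis methyltransferase gene, start 75 bp apart and both rose, by 0.34 and 0.33. Psmc2 and Dnajc2, a ribosome-associated chaperone gene, start 32 bp apart and rose by 0.41 and 0.20. Under library size alone Ftsj3 and Dnajc2 were at 0.13 and 0.0053, neither called.

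Psmd5 and Cutal, 572 bp apart with overlapping spans, rose by 0.38 and 1.87 on the log2 scale. Cutal had few counts and an SE of 0.38. It stood at 0.321, 0.987 and 0.490 CPM untreated and 2.51, 2.23 and 2.05 CPM after 4OHT. Psma2 and Mrpl32, a mitochondrial ribosomal protein gene 75 bp away, were at 0.17, not called, and 0.26 (adjusted p = 0.045). Mrpl32 was at 0.06 under library size alone and lost its call. The span of Psma2 overlaps another gene, AW209491.

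One pair moved in opposite directions: Psmd13 rose by 0.34 while Sirt3, a mitochondrial deacetylase gene starting 341 bp away, fell by 0.86 on the log2 scale (SE 0.12, adjusted p = 1.7e-04). Their spans overlap, and whether counting used strand is not given in the sources used here. Psmb1 rose by 0.30, while Tbp, encoding the TATA-binding protein, 137 bp away, had a log2 fold change of 0.10 (adjusted p = 0.29). Psmb9, too low to test, faces Tap1, the peptide transporter gene, 211 bp away, which fell by 1.38 on the log2 scale (SE 0.28). Psmd10 and Atg4a were both uncalled, and the neighbour of Psma4 was not tested.

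Differences between clones, which do not use the 4OHT comparison, touched 1 member at an adjusted p below 0.05, against 12.6% of all genes. This was Psmd7 on chromosome 8, at 78.9, 77.8 and 107 CPM untreated and 78.1, 87.0 and 119 CPM after 4OHT in clones a, b and c. Clone c was the high one in both groups, by 0.52 on the log2 scale over clone a. Psmb10, the other member on chromosome 8, was 0.65 higher in clone c than in clone a, with an adjusted p of 0.086. The 694 tested genes of chromosome 8 had a median of 0.40 for clone c over clone a and 0.16 for clone b over clone a, and 57.2% of them were called between clones. On the other autosomes and the X chromosome the medians lay between -0.06 and 0.02, and 8.25% to 16.2% were called. The Y chromosome had 7 tested genes and is not in that range. The part of this chromosome-wide difference in the values of Psmd7 and Psmb10 was not tested.

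**Figure D4:**
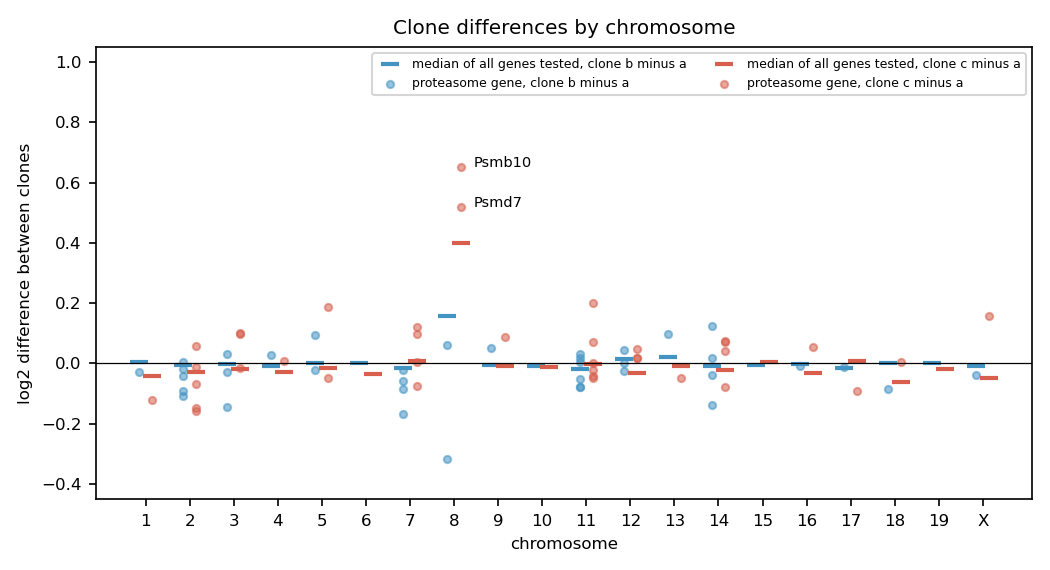
Log2 difference between clones (vertical axis) by chromosome (horizontal axis), clone b minus a in blue and clone c minus a in red, with bars for the median of all genes tested and points for proteasome genes. On chromosome 8 the clone c median is 0.40, with Psmd7 at 0.52 and Psmb10 at 0.65.

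The spread of Psmd7 over clones is part of the SE of its 4OHT value. Within clones a, b and c its log2 ratio of treated to untreated was -0.01, 0.16 and 0.16. With clone as a block its log2 fold change was 0.10 (adjusted p = 0.095), so the lid partner of Psmd14 remained uncalled either way. Without treated clone c the log2 fold change was -0.08.

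Proteasome-linked genes with other names were taken from 7 lists of 60 genes, 55 of them tested. Of these, 25 were called higher and 9 lower with TMM, beside 28.5% and 28.6% of all genes. Under library size alone 12 were higher and 14 lower, beside 17.4% and 41.0%, and with clone as a block 28 and 12, beside 34.1% and 33.3%. In assembly, Pomp, the chaperone that builds the beta ring, rose from 74.3, 75.7 and 72.4 CPM to 140, 131 and 130 CPM (0.85 ± 0.06, adjusted p = 2.2e-06). Akirin2, which carries proteasomes into the nucleus, rose by 0.55, while Psmg2, part of the chaperone pair that starts the alpha ring, fell by 0.71 on the log2 scale. The list's median over 6 tested genes was 0.14, or -0.06 under library size alone.

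Among activators and inhibitors, Psme4, which encodes the large nuclear cap PA200, rose from 302, 305 and 280 CPM to 548, 511 and 472 CPM (0.79 ± 0.07, adjusted p = 1.1e-05). AI314180, the table's symbol for Ecpas, a scaffold that binds proteasomes, rose by 0.39. Psme2, a subunit of the interferon-inducible activator PA28, fell by 0.53 (adjusted p = 0.023). Its call was lost without untreated clone a (0.076), treated clone a (0.088) or treated clone c (0.069). Psme1, its partner, was at -0.30 (adjusted p = 0.054, or 0.030 with clone as a block). The median of the 6 genes was 0.08, or -0.12 under library size alone.

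Of 5 cap proteins with other names, Sem1, a small lid subunit, rose by 0.43 and Usp14, a deubiquitinase that docks on the cap, by 0.33. Uchl5, the other docking deubiquitinase, fell by 0.31 on the log2 scale. Their list had a median of 0.14, which was -0.06 under library size alone. In the COP9 signalosome, a relative of the lid, 5 of 9 genes rose and 1 fell, with a median of 0.24. Scaled by library size, its median was 0.04, with 1 called higher and 1 called lower. Cops3 led with 0.57 ± 0.06, followed by Cops8 at 0.36 and Cops2 at 0.33, while Cops7a fell by 0.37 on the log2 scale. AI314180, Usp14, Cops2, Cops4, Cops5 and Cops8 lost their calls under library size alone.

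Regulators of proteasome gene transcription gave 6 called higher of 9, with a median of 0.33. With clone as a block 7 were higher and 2 lower, Nfe2l2 and Ngly1, and library size alone gave 4 higher, 2 lower and a median of 0.13. Maff, a small MAF partner of the Nfe2l factors, rose from 13.2, 13.6 and 13.2 CPM to 94.0, 104 and 117 CPM (2.97 ± 0.10, adjusted p = 1.5e-08). Mafk, another small MAF, rose by 1.28 ± 0.09, and Bach1, a repressor that binds the same DNA element, by 1.31 ± 0.11. Ddi2, the protease that activates the Nfe2l1 protein, rose by 0.40. Nfe2l1 itself was at 0.15 (adjusted p = 0.099, or 0.0099 with clone as a block) and Nfe2l2 at -0.16 (0.077, or 0.0065). Ngly1, the enzyme that removes sugar chains from the Nfe2l1 protein, was at -0.38 (adjusted p = 0.051, or 0.0066 with the block).

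In the ubiquitin list 7 of 13 tested genes rose and 1 fell, with a median of 0.23. Scaled by library size, the list's median was 0.03, with 3 called higher and 2 called lower. Uba6, a ubiquitin-activating enzyme, rose by 0.99, and Ubb, a polyubiquitin gene, rose by 0.77. Ubb went from 83.8, 82.5 and 92.3 CPM to 144, 150 and 147 CPM. Ubqln4, a shuttle that brings tagged proteins to the cap, fell by 0.36 on the log2 scale.

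Genes of MHC class I peptide loading, which use proteasome products, gave the one list with a median below 0 under TMM, at -0.86. Of 7 tested, 4 fell, Tapbp rose by 0.25 with TMM, and H2-K1 and H2-D1 were not called at 0.24 and 0.52. Tapbp lost its call under library size alone (0.05). Irf1, an interferon-response transcription factor, stood at 53.3 ± 3.6 CPM untreated and 29.2 ± 7.4 CPM after 4OHT (SD, n = 3). Its groups did not overlap, and it fell by 0.86 on the log2 scale (SE 0.15, adjusted p = 7.3e-04). Erap1, which trims peptides, fell by 0.92 on the log2 scale. Tap1, head to head with Psmb9 as above, was at 2.40, 2.73 and 2.84 CPM untreated and 1.14, 0.742 and 1.17 CPM after 4OHT. Its span overlaps that of Psmb9, and the low values of both are subject to that overlap.

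**Figure D5:**
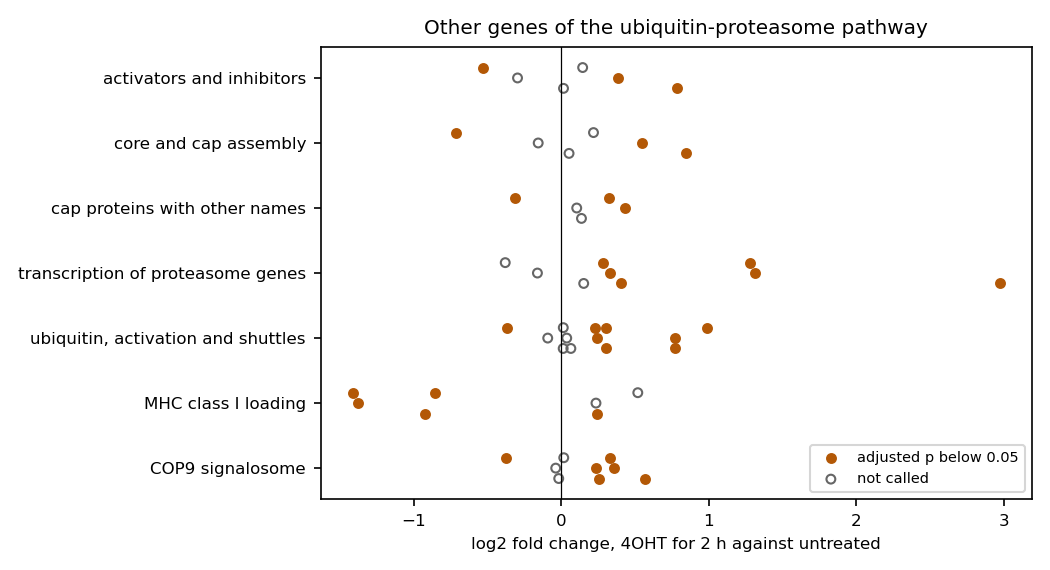
Log2 fold change (horizontal axis, TMM, 4OHT for 2 h against untreated) of the 55 tested genes of 7 lists (vertical axis), with filled points for genes at an adjusted p below 0.05 and open circles for the rest. Maff stands at 2.97 on the right, and in the MHC class I loading list 3 of 7 genes lie right of 0 and 4 left of it, among them Tap1 at -1.38 and Irf1 at -0.86.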

How the data were processed

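Newly made RNA was measured in 6 libraries, 3 untreated and 3 given 4OHT, 1 per clone and group. The values are raw read counts per gene symbol, as deposited by the authors with no normalization. Per the submitters' processing notes, STAR, featureCounts and the mm10 build were used. Not given in the sources used here: tool versions, strand use, and counting by exon or gene body. All columns could be tied to a sample by clone letter and time.

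The whole table was tested with edgeR 4.0.16 in R 4.3.3: filterByExpr (minimum count 10, minimum total 15), TMM scaling, glmQLFit and glmQLFTest with no clone term, and Benjamini-Hochberg adjustment over all 13869 genes, called below 0.05. The SE is the size of the log2 fold change divided by the square root of F. CPM values are TMM-scaled. The code was tested on simulated data. Nothing says that clones were handled as separate experiments, and the p-values reflect how far these libraries spread, which may be technical. The labels describe no molecular identifiers. No 2 libraries of a group agreed within counting noise (chi-square per gene 2.29 to 11.3).

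The clone letters pair the libraries, because the labels name each clone in both groups. The correlation of deviations from the group mean between paired libraries was 0.282, 0.165 and 0.357. Clone differences were tested jointly in a fit with treatment. Alternatives were DESeq2 1.42.0 and limma-voom (limma 3.58.1), DESeq2 size factors, library size alone, no filter, at least 1 CPM in 3 libraries, clone as a block, and leaving out each library. Positions and lengths are from GENCODE M21 and promoters from RefSeq (GRCm38.p6), 1 window per gene.

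Members, gene lists and alternatives were chosen with earlier results of these data known, and the motif CCGGAAG and the promoters shown were added last. Full values are given for the catalytic subunits and their immune counterparts, Psma8, Psmb11, all ATPases, the 4 highest and 4 lowest members by log2 fold change and any member called lower, and for up to 4 genes per list with the smallest adjusted p. Some genes that this rule would name are not reported here. Of the 60 listed genes 59 were in the table, Ecpas as AI314180. Psma8, Psmb1, Psmb2, Psmb7, Psmc3, Psmd3 and Psmd7 had no promoter entry.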

Additional observations from a re-analysis of the deposited data

How the results depend on the processing

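The calls of the 28 members called up or down were kept under DESeq2, limma-voom, DESeq2 size factors, no filter and a minimum of 1 CPM, and clone as a replicate block added Psma2, Psmb10 and Psmd3 for 28 higher and 3 lower. Library size alone gave 14 members higher and 4 lower and 12 listed pathway genes higher and 14 lower. It set the median log2 fold change at 0.14 over all members, 0.068 for the beta ring, 0.21 for ATPases, 0.16 for non-ATPases and -0.13 for the alpha ring. It also turned Psma1 to -0.13, Psma2 to -0.030, Psma6 to -0.12, Psmb5 to -0.16, Psmd3 to -0.016 and Psmd7 to -0.087, none of them called.

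Leaving out each library in turn gave 25 to 27 members higher and 2 to 3 lower, with medians of 0.32 to 0.35 over all members, 0.38 to 0.41 for ATPases, 0.34 to 0.38 for non-ATPases, 0.25 to 0.30 for the beta ring and 0.04 to 0.11 for the alpha ring. It gave 21 to 26 pathway genes higher and 9 to 11 lower. Over all genes, 14050 to 14158 were tested in these fits, with 3429 to 3983 called higher and 3469 to 3964 lower. Psmb5 then ranged from -0.034 to 0.15, at -0.034 without treated clone a, -0.0039 without treated clone c and -0.00093 without untreated clone a, and Psmd7 ranged from -0.082, without treated clone c, to 0.26. Between clones, 1 member was called, or 2 with DESeq2 size factors and library size alone (adding Psmd14), with no filter (adding Psmb10), without treated clone a (adding Psmd3) and without treated clone c (adding Psma5), a range of 1 to 2. Over all genes, 599 (DESeq2) to 2524 (without treated clone c) were called between clones, of 13869 to 19402 tested. The causes of these changes between settings were not tested, beyond the shift that library size makes in every gene. Few counts limit Psmb8, Psmb9 and Psmb10.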
